A study of Sus scrofa with 15 samples.

Results

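The nuclear genes for subunits of the respiratory chain and the ATP synthase were followed in piglet liver after a challenge with lipopolysaccharide (LPS), a component of the outer membrane of Gram-negative bacteria. A gene was taken as a member when its Ensembl pig symbol began with NDUFA, NDUFB, NDUFC, NDUFS, NDUFV, UQCR, COX4, COX5, COX6, COX7, COX8, ATP5F1, ATP5M or ATP5P, or was SDHA, SDHB, SDHC, SDHD or CYC1. Symbols beginning with NDUFAF, which name assembly factors, and genes of the mitochondrial genome were left out. This gave 65 of the 31908 genes in the count table, of which 29 belong to complex I, 4 to complex II, 7 to complex III, 15 to complex IV and 10 to complex V. NDUFA4 and NDUFA4L2 were placed with complex IV, the complex in which the NDUFA4 protein is found. Only genes whose identifier is paired with a symbol could be chosen, and family members without such a pairing, such as NDUFS7, UQCRB, COX6B1, COX6C, ATP5F1B and ATP5MC2, were not analysed here.

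The respiratory chain of the inner mitochondrial membrane passes electrons from NADH (complex I) and succinate (complex II) through ubiquinone to complex III, cytochrome c and complex IV, which reduces oxygen to water. Complexes I, III and IV pump protons, and complex V uses the proton gradient to make ATP. All subunits of complex II are encoded in the nucleus, whereas the other complexes combine nuclear subunits with a few subunits translated inside mitochondria. Hepatocytes are rich in mitochondria and depend on this chain for gluconeogenesis, urea synthesis and fatty acid oxidation.

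All animals were male Duroc x Large White x Landrace piglets in the growing stage. The CON group received sterile saline and the LPS group 80 μg/kg of LPS by intraperitoneal injection, with liver taken 4 h later, and each group gave 3 libraries. These libraries were the input fraction of an m6A immunoprecipitation experiment, that is, fragmented polyadenylated RNA set aside before the antibody step. Levels are given as CPM, counts scaled to a common library size with TMM factors, or as RPKM, the CPM divided by the length of the exon model in kilobases, where genes are compared with each other. The exon models of the tested members ran from 318 to 14834 bases, so an order by RPKM depends on the length of the model. In bulk liver, fewer cells of a type and less RNA per cell cannot be told apart.

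The CON libraries held 5927348 to 10351491 counts and the LPS libraries 4348478 to 19967417. The 65 genes held between 0.293% and 0.421% of each library. LPS replicate 3 was the deepest library and had a TMM factor of 0.735, against 0.979 to 1.11 in the other 5. The 12 hepatocyte markers were all tested and summed to between 58976 and 117895 CPM. Summed neutrophil markers were 30.8 to 62.0 CPM in the CON libraries and 110 to 338 CPM after LPS, with the highest value in LPS replicate 3. All 11 tested Kupffer cell and macrophage markers had a log2 fold change below 0, with a median of -0.48. The part of these cell markers in the values that follow was not tested.

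The filter on low counts left 59 of the 65 genes. They were abundant messages, with a median CPM at the 80.2nd percentile of the 12774 tested genes and 56 of the 59 above the median gene. None of the 59 was called at 4 h after LPS by edgeR's quasi-likelihood test (Benjamini-Hochberg adjustment, adjusted p below 0.05, fold above 1.5), a rule that called 7 genes in all, or 0.0548% of those tested. At an unadjusted p below 0.05 the members again numbered 0 in both directions, against 6.18% of all tested genes for higher and 6.33% for lower levels. The smallest unadjusted p of a member was 0.0551 and the smallest adjusted p was 0.413, both for NDUFC2. The members were 38 with a positive and 21 with a negative log2 fold change, from -0.68 to 0.91, and none of these differences passed the test.

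Members stayed closer to 0 than the typical gene. The median size of their log2 fold change was 0.22, compared with 0.39 over all tested genes, and it was under 0.5 in 51 of 59 members (86.4%) against 60.2% of all tested genes. The 95% interval of the fold change lay within 2-fold in either direction for 29 of 59 members (49.2%) and for 21.4% of all tested genes. Members were also measured with less error than the typical gene, with a median standard error of 0.32 against 0.41. For the other 30 tested members a 2-fold difference lay inside the interval, so a change of that size cannot be told apart from none with these libraries. Small fold changes were not particular to the members. The 19 tested genes of the tricarboxylic acid cycle and pyruvate dehydrogenase had a median size of 0.15 and 63.2% of intervals within 2-fold. The 60 tested genes of the mitochondrial ribosome had 0.33 and 35.0%.

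**Figure D1:**
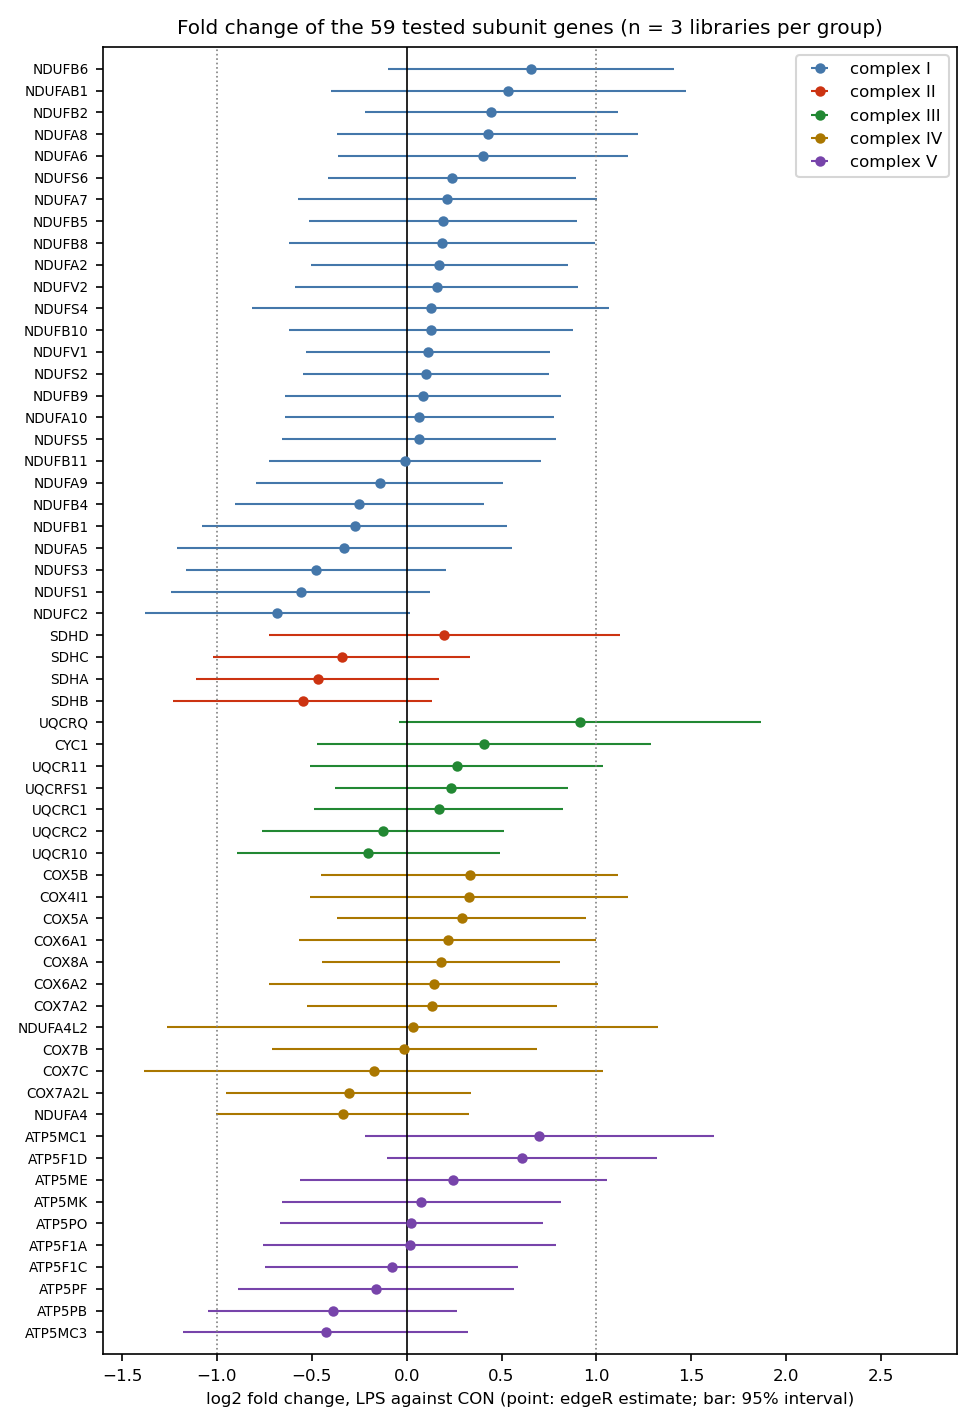
Log2 fold change of the 59 tested subunit genes in the LPS group against the CON group (x axis) with its 95% interval, ordered within complexes I to V (y axis; 3 libraries per group; dotted lines mark 2-fold). Every interval spans 0, and the estimates run from -0.68 for NDUFC2 to 0.91 for UQCRQ.

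The median log2 fold change of the members was 0.11, against 0.01 over all tested genes. With library totals in place of TMM factors, both medians moved down together, to -0.12 for all tested genes and -0.02 for the members, and the split of 38 higher and 21 lower became 27 and 32. The members lay 0.11 above all genes with TMM factors and 0.10 above with totals. This offset moved more when 1 library was left out. It was 0.0098 without LPS replicate 1, 0.21 without LPS replicate 2 and 0.0215 without LPS replicate 3. Without CON replicates 1, 2 and 3 in turn, the offset was 0.0628, 0.0428 and 0.1494.

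By complex, the median log2 fold change was 0.12 for complex I, -0.41 for complex II, 0.23 for complex III, 0.14 for complex IV and 0.02 for complex V. Complex II, with 3 of its 4 genes lower in the LPS group, was the complex furthest from 0, in this fit and in every alternative run. With 1 library left out the other medians ran from 0.05 to 0.18 for complex I, 0.02 to 0.34 for complex III, -0.0065 to 0.31 for complex IV and -0.12 to 0.13 for complex V. All LPS libraries lay below all CON libraries for 5 members (NDUFC2, NDUFS1, NDUFS3, SDHA and SDHB), where 9.8% of all tested genes did so. All LPS libraries lay above all CON libraries for 1 member, UQCRFS1, where 6.52% of all tested genes did so. With 3 libraries against 3, the smallest p that an exact two-sided permutation test can give for 1 gene is 0.1.

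Complex II is succinate dehydrogenase, which also serves as an enzyme of the tricarboxylic acid cycle. SDHA, the flavoprotein subunit that oxidizes succinate (chr16:79834044-79862495, minus strand), had 193, 237 and 208 CPM in CON replicates 1, 2 and 3 and 153, 166 and 141 CPM in LPS replicates 1, 2 and 3. Its groups did not overlap, and the lowest CON library stood above the highest LPS library. SDHA had a log2 fold change of -0.47 (SE 0.29, edgeR adjusted p = 0.535). SDHB, the iron-sulfur subunit that carries electrons from SDHA towards ubiquinone (chr6:75648215-75678378, minus strand), had 83.5, 89.0 and 98.5 CPM in the CON libraries and 56.0, 79.5 and 49.8 CPM after LPS. LPS replicate 2 came within 3.96 CPM of the lowest CON library, while the other LPS libraries were clearly apart. Its log2 fold change was -0.55 (SE 0.30, edgeR adjusted p = 0.496). Leaving out LPS replicate 2 gave -0.77 (edgeR adjusted p = 0.184).

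SDHC and SDHD anchor the complex in the membrane and form its ubiquinone site. SDHC had 63.4, 61.2 and 50.9 CPM in the CON libraries and 34.9, 46.0 and 57.4 CPM after LPS. LPS replicate 3 fell inside the CON range and the other LPS libraries below it, and the log2 fold change was -0.34 (SE 0.30, edgeR adjusted p = 0.680), or -0.17 without LPS replicate 1 and -0.51 without LPS replicate 3. SDHD had 31.8, 15.6 and 24.6 CPM in the CON libraries and 18.1, 21.6 and 42.7 CPM after LPS. Here the lowest library was a CON library and the highest was LPS replicate 3, and the log2 fold change of 0.20 turned to -0.26 without LPS replicate 3, to -0.03 without CON replicate 2 and to -0.02 with library totals. SDHD shares 20.2% of its exon bases with the opposite strand of TIMM8B. Per length, over all libraries, the order was SDHB at 30.0, SDHA at 27.6, SDHD at 16.7 and SDHC at 6.15 RPKM. The libraries of SDHA and SDHB overlapped. In CPM the order of SDHC and SDHD was the reverse, with CON means of 58.5 and 24.0 on exon models of 8498 and 1541 bases.

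Summed over its 4 genes, complex II had 371, 402 and 382 CPM in the CON group (385 ± 15.8, SD, n = 3) and 262, 313 and 291 CPM in the LPS group (289 ± 26.0). Most of the CON sum came from SDHA (mean 212 CPM) and SDHB (90.3 CPM), and the groups overlapped for SDHC (58.5 CPM) and SDHD (24.0 CPM). In the sum, no LPS library reached the CON range. The other complexes did not show this gap. Complex I summed to 1083 ± 80.8 CPM in the CON libraries and 1174 ± 70.5 after LPS (n = 3 each), complex III to 439 ± 39.4 and 524 ± 68.8, complex IV to 854 ± 218 and 906 ± 196, and complex V to 829 ± 118 and 855 ± 73.0, with overlapping groups in each. A ratio taken inside a library does not depend on the scaling between libraries. The ratio of summed complex II to summed complex III was 0.924, 0.927 and 0.796 in the CON libraries and 0.434, 0.656 and 0.592 after LPS. The ratio of complex II to complex I was 0.330, 0.407 and 0.337 in the CON libraries and 0.211, 0.285 and 0.246 after LPS. Both ratios were lower in all 3 LPS libraries. Against complex V the gap was 0.00400 between the lowest CON value of 0.411 and the highest LPS value of 0.407, and against complex IV the groups overlapped. Of the 12 hepatocyte markers, 5 had a positive and 7 a negative log2 fold change, with a median of -0.23. All LPS libraries lay below all CON libraries for ALB (-0.76), CYP2E1 (-0.74) and ASGR1 (-1.03) and above them for FGB (1.45). The groups were thus apart for 33.3% of these markers, against 16.3% of all tested genes. The part of the hepatocyte markers in the complex II values was not tested. The ratios and sums were chosen after the values were seen and are given without a test.

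**Figure D2:**
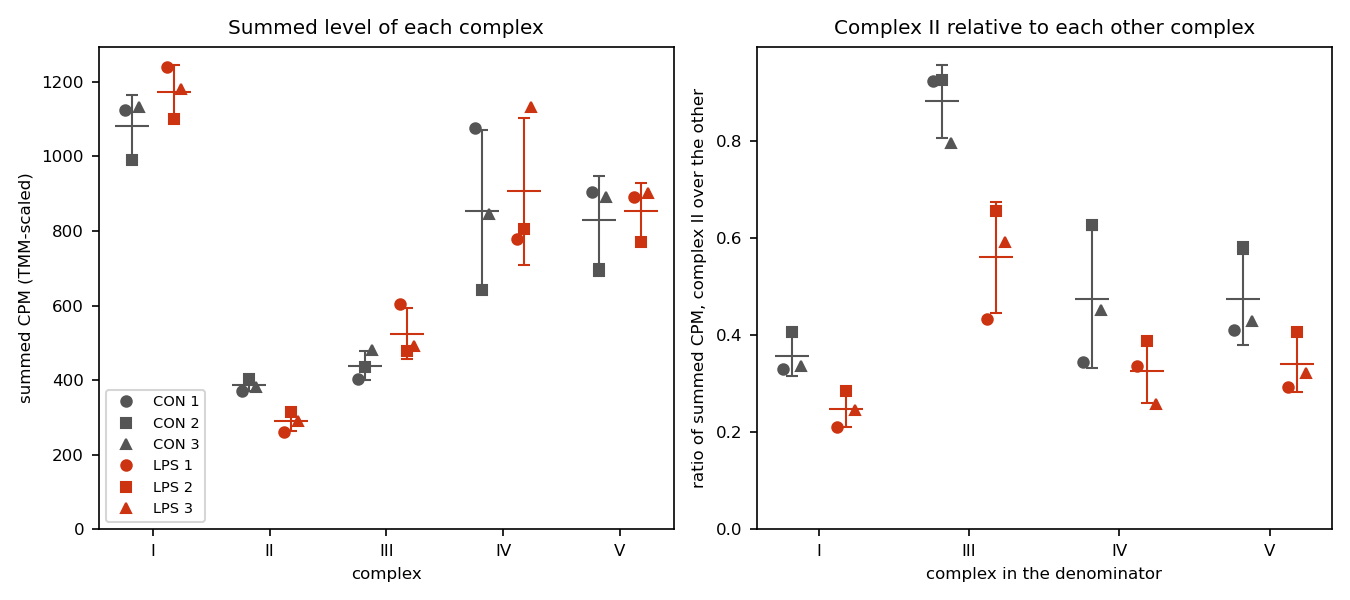
Left, summed CPM of the genes of each complex in each library (points, with mean ± SD, n = 3 per group). Right, summed complex II divided by the sum of each other complex within a library, where the CON libraries lie between 0.796 and 0.927 and the LPS libraries between 0.434 and 0.656 over complex III.

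Complex I oxidizes NADH and is the largest complex of the chain. Of its 26 tested genes, 18 had a positive and 8 a negative log2 fold change, the core subunits being 3 and 2 and the accessory subunits 15 and 6. The 3 members of complex I whose groups did not overlap were all lower in the LPS group, 11.5% of the 26 genes against 9.8% of all tested genes with all LPS libraries below, so this share was near the background. NDUFS1, the largest core subunit, which holds iron-sulfur clusters of the electron path (chr15:109409770-109451676, minus strand), had 41.6, 30.2 and 26.3 CPM in the CON libraries and 24.0, 20.8 and 21.9 CPM after LPS. The LPS libraries were close together and all under the lowest CON library. Its log2 fold change was -0.56 (SE 0.31, edgeR adjusted p = 0.492), or -0.35 without CON replicate 1.

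NDUFS3, a core subunit of the matrix arm (chr2:15031149-15036880, minus strand), had 19.3, 16.4 and 20.1 CPM in the CON libraries and 11.1, 14.7 and 14.1 CPM after LPS. CON replicate 2 and LPS replicate 2 were the nearest libraries of the 2 groups. The log2 fold change was -0.48 (SE 0.31, edgeR adjusted p = 0.556), and 23.3% of its exon bases lie opposite KBTBD4. The accessory membrane-arm subunit NDUFC2 (chr9:12485167-12492504, minus strand) had 20.3, 27.3 and 26.7 CPM in the CON libraries and 17.9, 12.3 and 16.2 CPM after LPS. LPS replicate 1 was the LPS library nearest the CON group. NDUFC2 had a log2 fold change of -0.68 (SE 0.31, edgeR adjusted p = 0.413). This gene model shares 91.5% of its exon bases with the opposite strand of THRSP, a lipogenic gene of liver, so reads of either gene cannot be told apart if strand was not used in counting, and the strand setting is not given.

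The accessory subunits with the highest estimates were NDUFB6, NDUFAB1, NDUFB2 and NDUFA8, named here after their values were seen. NDUFB6, a subunit of the membrane arm, had 17.1, 15.8 and 18.4 CPM in the CON libraries and 27.0, 17.8 and 35.6 CPM after LPS. LPS replicate 2 lay inside the CON range and the other LPS libraries above it, and the log2 fold change was 0.65 (SE 0.34, edgeR adjusted p = 0.468), or 0.41 without LPS replicate 3. The gene shares 41.3% of its exon bases with APTX on the same strand. NDUFAB1, the mitochondrial acyl carrier protein that is also a complex I subunit, had 103, 45.3 and 72.2 CPM in the CON libraries and 80.0, 77.2 and 163 CPM after LPS. Only LPS replicate 3 exceeded the CON range, and the log2 fold change of 0.54 (SE 0.42, edgeR adjusted p = 0.638) was 0.11 without that library, 0.29 without CON replicate 2 and 0.86 without CON replicate 1.

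NDUFA8 had 22.3, 26.7 and 26.2 CPM in the CON libraries and 45.4, 36.5 and 19.8 CPM after LPS. LPS replicate 3 was the lowest of all 6 libraries for NDUFA8 and the highest for NDUFAB1. The log2 fold change of NDUFA8 was 0.43 (SE 0.36, edgeR adjusted p = 0.658) and was 0.72 without that library and 0.17 without LPS replicate 1. NDUFB2 had 31.2, 33.4 and 39.7 CPM in the CON libraries and 59.5, 44.7 and 38.3 CPM after LPS, with a log2 fold change of 0.45 (SE 0.30, edgeR adjusted p = 0.577), or 0.26 without LPS replicate 1. For NDUFA5 the high library was in the other group, with 31.1, 13.3 and 13.5 CPM in the CON libraries and 14.6, 14.6 and 17.0 CPM after LPS. Its log2 fold change of -0.33 (edgeR adjusted p = 0.770) turned to 0.20 without CON replicate 1. On the same strand, 28.0% of the exon bases of NDUFA5 are shared with other gene models.

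Per length, the most abundant complex I messages were NDUFS6, NDUFB10 and NDUFB4. NDUFS6, which is needed late in complex I assembly and carries a zinc-binding site, had a level of 123 ± 12.4 RPKM in the CON libraries and 145 ± 20.9 RPKM after LPS (SD, n = 3 each). NDUFB4 had 131 ± 25.0 and 110.0 ± 12.9 RPKM. NDUFB10 had 121 ± 13.2 and 132 ± 43.8 RPKM, its wider LPS spread running from 74.6 CPM in replicate 3 to 148 CPM in replicate 1. The log2 fold changes were 0.24 for NDUFS6, -0.25 for NDUFB4 and 0.13 for NDUFB10, with edgeR adjusted p of 0.773, 0.767 and 0.908, and with 1 library left out they ran from 0.17 to 0.37, from -0.35 to -0.09 and, turning below 0 without LPS replicate 1, from -0.13 to 0.36. These 3 levels did not differ from each other beyond the spread between libraries. The lowest complex I level per length among tested members was 3.68 RPKM for NDUFB5.

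**Figure D3:**
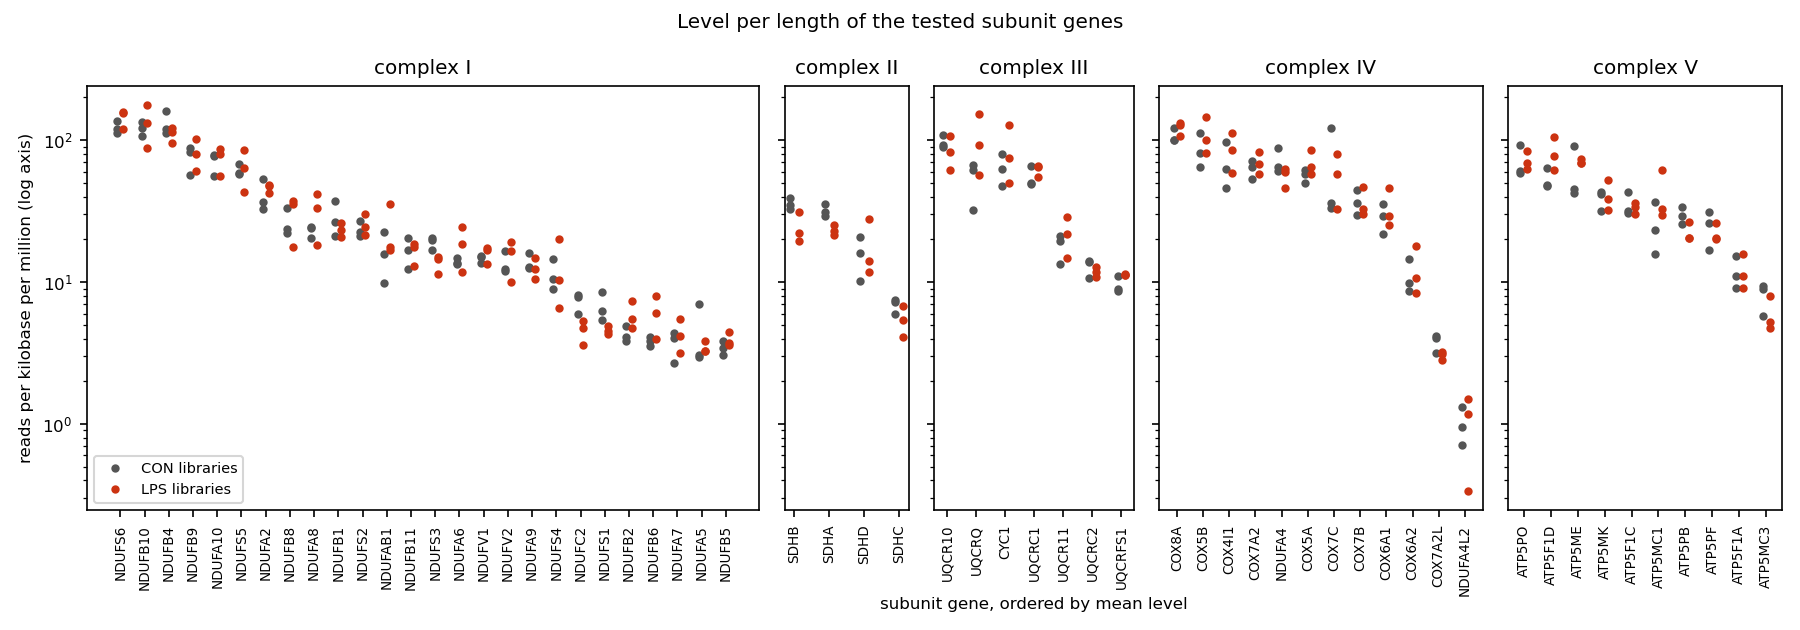
RPKM (y axis, log scale) of the tested subunit genes of complexes I to V in each CON and LPS library (points), ordered by mean level within a complex. Levels run from 0.996 RPKM for NDUFA4L2 to 134 RPKM for NDUFS6, and the points of the 2 groups overlap for most genes.

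Complex III hands electrons from ubiquinol to cytochrome c. It was the complex with the highest median log2 fold change, with 5 of its 7 genes above 0, but that median was 0.02 without LPS replicate 1 and 0.09 without CON replicate 1. UQCRFS1, the Rieske iron-sulfur protein (chr6:39364887-39373873, minus strand), had 52.3, 40.9 and 42.3 CPM in the CON libraries and 53.6, 52.7 and 53.2 CPM after LPS. The LPS libraries were almost equal and CON replicate 1 lay just under them, so the groups did not overlap although the log2 fold change was only 0.23 (SE 0.27, edgeR adjusted p = 0.766). UQCRQ, a small accessory subunit near the ubiquinone site (chr2:135186479-135188295, plus strand), had 44.8, 23.4 and 48.4 CPM in the CON libraries and 67.2, 41.4 and 111 CPM after LPS. LPS replicate 2 lay inside the CON range and the other LPS libraries above it. UQCRQ had the highest log2 fold change of the 59 genes, 0.91 (SE 0.43, edgeR adjusted p = 0.423), which was 1.20 without LPS replicate 2 (edgeR adjusted p = 0.0907) and 0.50 without LPS replicate 3.

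CYC1, the cytochrome c1 subunit that passes electrons on to cytochrome c (chr4:606516-608996, minus strand), had 59.3, 98.6 and 77.4 CPM in the CON libraries and 158, 92.6 and 62.1 CPM after LPS. Only LPS replicate 1 exceeded the CON range. Its log2 fold change was 0.41 (SE 0.39, edgeR adjusted p = 0.711) and was -0.01 without that library and 0.69 without LPS replicate 3. The core proteins UQCRC1 and UQCRC2, which form the matrix part of the complex, differed little between groups, with log2 fold changes of 0.17 and -0.13. UQCR11 had a log2 fold change of 0.26, which was 0.02 without LPS replicate 1, 0.09 without CON replicate 1 and 0.49 without LPS replicate 3. On the same strand, 41.2% of the exon bases of UQCR11 are shared with other gene models. UQCR10, the most abundant message of complex III per length, had 96.6 ± 10.4 RPKM in the CON libraries and 84.0 ± 23.1 RPKM after LPS (SD, n = 3 each), with a log2 fold change of -0.20, or -0.0037 without LPS replicate 3. It was followed by UQCRQ at 77.4 RPKM and CYC1 at 73.4 RPKM over all libraries, and the spread of UQCRQ and CYC1 covered the difference between them.

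Complex IV, cytochrome c oxidase, had 12 tested genes, 8 with a positive and 4 with a negative log2 fold change, none with groups apart. COX8A was the most abundant per length, at 108 ± 13.0 RPKM in the CON libraries and 122 ± 12.8 RPKM after LPS (SD, n = 3 each). COX5B had 86.3 ± 24.2 and 109 ± 32.4 RPKM, and COX4I1, the ubiquitous isoform of the subunit through which ATP inhibits the enzyme, had 68.5 ± 25.6 and 86.0 ± 27.0 RPKM. In CPM, COX4I1 was 51.1, 37.8 and 78.8 in the CON libraries and 69.8, 48.3 and 92.4 after LPS. COX5B followed the same order of libraries within each group, and replicate 2 was the lowest library of each group for both genes. The log2 fold changes were 0.18 for COX8A, 0.33 for COX5B and 0.33 for COX4I1, with edgeR adjusted p of 0.824, 0.741 and 0.758. With 1 library left out they ran from 0.13 to 0.31, from 0.09 (without LPS replicate 3) to 0.60 (without CON replicate 3) and from 0.09 to 0.69 (without the same libraries). COX5A, a nuclear subunit on the matrix side, had a log2 fold change of 0.29 (edgeR adjusted p = 0.728), or 0.12 without LPS replicate 1. NDUFA4 had 54.2, 37.3 and 40.1 CPM in the CON libraries and 28.3, 38.9 and 36.8 CPM after LPS, with a log2 fold change of -0.34 (SE 0.30, edgeR adjusted p = 0.680), or -0.16 without CON replicate 1. COX4I1 shares 57.0% of its exon bases with a same-strand gene model.

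COX7C, a small subunit, had the widest range in CPM of the complex, with 452, 123 and 134 CPM in the CON libraries and 122, 213 and 294 CPM after LPS. CON replicate 1, with 5059 counts, stood above every other library, and the other CON libraries lay near the lowest LPS library. The log2 fold change of -0.17 (SE 0.54, edgeR adjusted p = 0.923) turned to 0.70 without CON replicate 1 and to 0.11 without LPS replicate 1. Without COX7C the summed complex IV level was 618 ± 97.5 CPM in the CON libraries and 696 ± 127 CPM after LPS (SD, n = 3 each). How reads that match processed pseudogenes of these small subunits were counted is not given.

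Several complex IV subunits exist as a ubiquitous or liver form and a form of heart, skeletal muscle or other tissues. COX6A1, the non-muscle form, had 31.2 RPKM over all libraries and COX6A2, the heart and muscle form, 11.6 RPKM. COX6A2 was detected in every library, at 13.7, 11.9 and 20.2 CPM in the CON libraries and 24.6, 14.7 and 11.5 CPM after LPS, while only 1 of 7 skeletal and cardiac muscle markers passed the filter and the list summed to 4.74 to 12.2 CPM. COX7A2 had 66.3 RPKM, whereas its muscle form COX7A1 had 0, 0 and 1 counts in the CON libraries and 0, 0 and 7 counts after LPS, on an exon model of which 94.4% lies opposite CAPNS1. COX4I2, the lung-enriched and oxygen-responsive form, had 19, 2 and 9 counts in the CON libraries and 1, 6 and 9 after LPS. COX6B2, the testis form, had 1, 0 and 1 counts in the CON libraries and 0, 0 and 5 after LPS. NDUFA4L2, a paralogue of NDUFA4 induced by hypoxia in many tissues, stood at 0.996 RPKM against 63.5 RPKM for NDUFA4. Its CPM was 2.32, 1.72 and 3.16 in the CON libraries and 2.83, 0.818 and 3.62 after LPS, so the groups overlapped widely. The COX6A1 level is uncertain, since 84.9% of its exon bases are shared with same-strand gene models, among them GATC.

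Complex V, the ATP synthase, had 6 genes above and 4 below 0 and a median of 0.02. The median was negative with library totals (-0.15), no filter on low counts (-0.0058) and at least 10 counts in every library (-0.0156). It was also negative without CON replicate 2 (-0.12), without CON replicate 3 (-0.0364) and without LPS replicate 3 (-0.10). ATP5F1A and ATP5F1C, the alpha and gamma subunits of the catalytic F1 head, had overlapping groups, from 135 to 228 CPM in the CON libraries and 134 to 234 CPM after LPS for ATP5F1A. ATP5F1D, the delta subunit of the central stalk, had 52.8, 51.6 and 68.9 CPM in the CON libraries and 114, 67.1 and 83.3 CPM after LPS. LPS replicate 2 lay just under CON replicate 3 and the other LPS libraries above the CON range. Its log2 fold change was 0.61 (SE 0.32, edgeR adjusted p = 0.472), or 0.39 without LPS replicate 1.

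ATP5MC1 and ATP5MC3 encode the same mature c subunit of the rotating ring behind different import sequences. ATP5MC1 had 27.3, 18.7 and 43.6 CPM in the CON libraries and 72.6, 38.8 and 35.0 CPM after LPS. ATP5MC3 had 47.5, 76.9 and 73.8 CPM in the CON libraries and 65.6, 43.0 and 38.9 CPM after LPS. The estimates pointed in opposite directions, with log2 fold changes of 0.70 (SE 0.41, edgeR adjusted p = 0.520) for ATP5MC1 and -0.43 (SE 0.34, edgeR adjusted p = 0.640) for ATP5MC3, and the groups overlapped for both genes. With 1 library left out they ran from 0.31 (without LPS replicate 1) to 1.10 (without CON replicate 3) for ATP5MC1 and from -0.68 (without LPS replicate 1) to -0.27 (without LPS replicate 3) for ATP5MC3. The difference between these estimates was not tested. ATP5PB, a peripheral stalk subunit, had a log2 fold change of -0.39 (SE 0.29, edgeR adjusted p = 0.626). Per length, ATP5PO was the most abundant member at 71.5 RPKM, followed by ATP5F1D at 67.2 and ATP5ME at 65.3 RPKM, levels that did not differ beyond the spread between libraries. ATP5ME, a membrane subunit, had a log2 fold change of 0.25 (edgeR adjusted p = 0.814), which was 0.05 without CON replicate 2 and 0.71 without CON replicate 3, and its CON spread from 96.7 to 208 CPM covered the LPS libraries at 158 to 169 CPM.

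**Figure D4:**
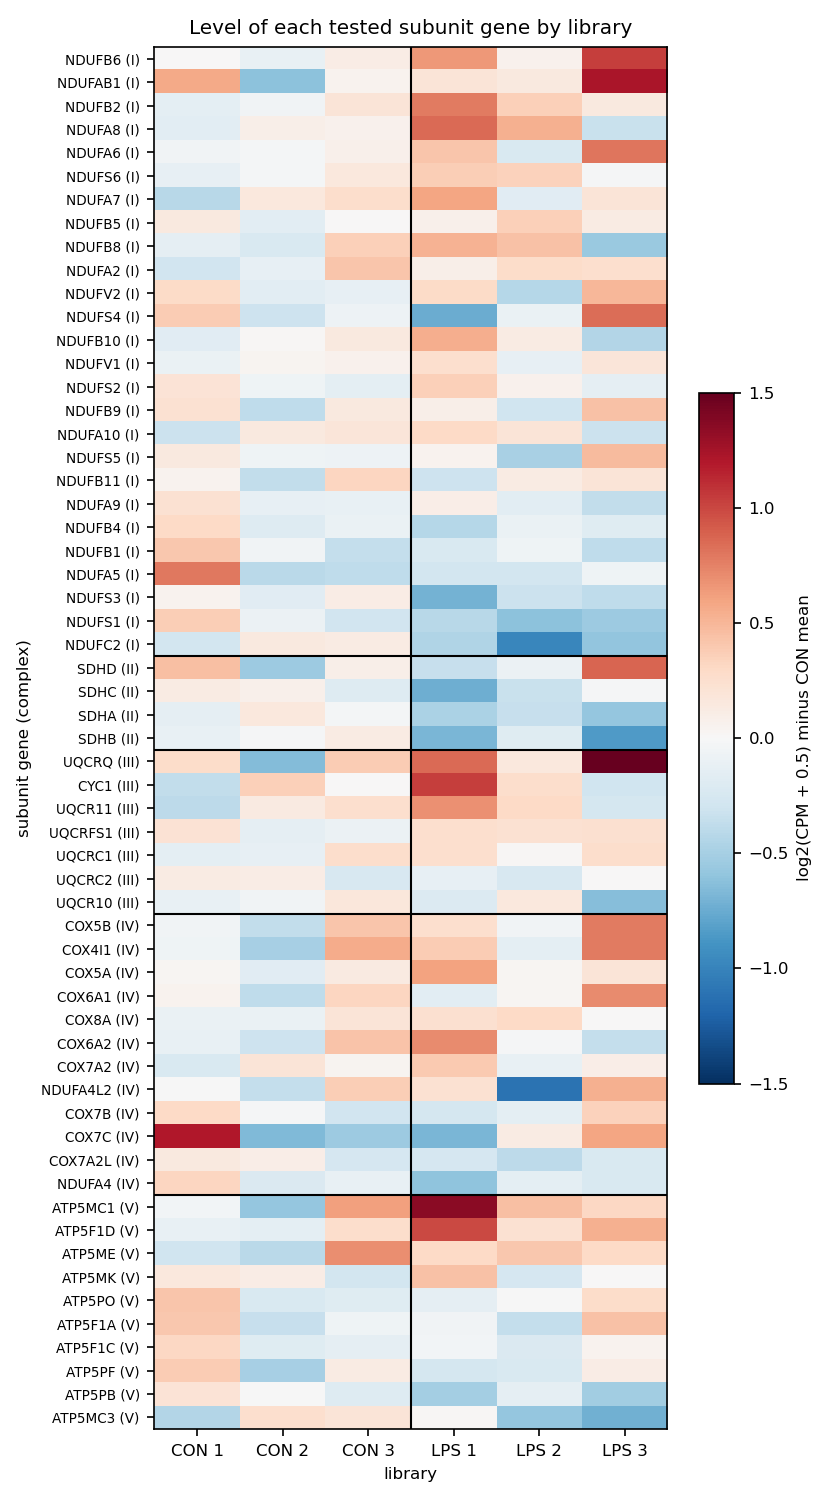
Level of each tested subunit gene in each library as log2(CPM + 0.5) minus the CON mean of that gene (colour, from -1.5 to 1.5), with genes in rows by complex and libraries in columns. SDHA and SDHB are below the CON mean in all 3 LPS libraries, and CON replicate 1 stands out for COX7C.

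Within the groups, replicate libraries differed in a shared way. CON replicate 2 was the lowest CON library for 30 of 59 members (50.8%), against 33.0% of all tested genes, and LPS replicate 2 was the lowest LPS library for 25 of 59 (42.4%), against 33.2%. Relative to the CON mean of each gene, the median member stood at 0.05, -0.12 and 0.09 on the log2 scale in CON replicates 1, 2 and 3 and at 0.10, -0.09 and 0.12 in LPS replicates 1, 2 and 3. The spread within a group was thus wider than the distance between the groups. The median coefficient of variation of the members was 19.2% in the CON libraries and 23.8% after LPS, against 24.7% and 36.3% over all tested genes. The ratio of the highest to the lowest library was larger in the LPS group for 36 of 59 members (61.0%) and for 70.0% of all tested genes.

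The 6 members under the filter were NDUFA11, NDUFB7, NDUFS8, COX4I2, COX6B2 and COX7A1. NDUFB7 had 0 counts in every library, and 100% of its exon bases lie opposite another gene model. NDUFA11 had 6 to 12 counts per library, with 30.7% of its exon bases shared on the same strand and 49.7% on the opposite strand. NDUFS8, a core subunit with iron-sulfur clusters, had 1 to 9 counts on a model of which 70.9% is shared with same-strand genes, so these low counts cannot be read as low expression. In all, 26 of the 65 members share exon bases with another gene model. The 37 tested members that share none had a median log2 fold change of 0.13, with 25 above and 12 below 0, and the 22 tested members that share some had 0.08.

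The 0 calls held in the settings in which far more genes were called. Without LPS replicate 2, 7.2% of all tested genes were called and 0 of 60 members. Without a filter on low counts 3.76% of genes were called and 0 of 64 members, and with DESeq2 2.81% of genes and 0 of 62 members. At an unadjusted p below 0.05 without LPS replicate 2, 4 members passed, namely UQCRQ, NDUFB6 and ATP5F1D with higher and SDHB with lower levels, so that 3 of 60 were higher and 1 lower where 11.3% and 12.6% of all tested genes passed.

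The mitochondrial genome encodes the remaining subunits of complexes I, III, IV and V. All 13 of its protein genes were tested, 10 with a positive and 3 with a negative log2 fold change, with a median of 0.36, and 0 were called. Their levels moved between libraries far more than those of the nuclear members, the median gene standing at 0.57, -0.27 and -0.33 on the log2 scale relative to the CON mean in CON replicates 1, 2 and 3 and at 0.75, 0.76 and -0.43 in LPS replicates 1, 2 and 3. LPS replicate 3, the deepest library, was the lowest of all. No mitochondrial gene had its groups apart. Mitochondrial genes held 3.22% of the counts of LPS replicate 1 but 1.17% of those of LPS replicate 3. ATP8, chosen once the values were known, had 3.66, 0.312 and 0.0989 CPM in the CON libraries and 356, 596 and 0.819 CPM after LPS. LPS replicate 3 lay in the CON range and the other LPS libraries far above it (edgeR adjusted p = 0.203). ATP8 overlaps ATP6 in the mitochondrial genome, so counts of these neighbours depend on how shared reads were assigned.

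Assembly factors build the complexes without being part of them. Of 14 tested factors of complex I, 8 had a positive and 6 a negative log2 fold change, with a median of 0.20 and 0 called. ACAD9, which is required for complex I assembly, had 46.1, 47.6 and 48.0 CPM in the CON libraries and 24.0, 35.3 and 23.3 CPM after LPS. The CON libraries were nearly equal and all LPS libraries lay below them, with a log2 fold change of -0.78 (SE 0.30, edgeR adjusted p = 0.333). NDUFAF1 (-0.70) lay below in the same way, and NDUFAF6 (0.82) and NDUFAF8 (0.37) had all LPS libraries above all CON libraries. The groups were apart for 28.6% of the 14 factors, against 16.3% of all tested genes. Of 14 tested factors of complex IV, 10 had a positive log2 fold change, with a median of 0.17 and 0 called. COX17, the chaperone that delivers copper for insertion into complex IV, had 92.1, 75.0 and 113 CPM in the CON libraries and 383, 234 and 396 CPM after LPS. The lowest LPS library was 2.07 times the highest CON library. Its log2 fold change of 1.85 (SE 0.35, edgeR adjusted p = 0.0949) exceeded that of every tested nuclear subunit. Factors of complexes III and V numbered 5 and 4 tested genes with medians of 0.11 and -0.14, the single tested factor of complex II had 0.22, and none was called.

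Electrons also reach ubiquinone from dehydrogenases outside complexes I and II. DHODH, which oxidizes dihydroorotate in pyrimidine synthesis, had 15.0 ± 6.34 CPM in the CON libraries and 56.0 ± 25.7 CPM after LPS (SD, n = 3 each), with a log2 fold change of 1.89 (SE 0.46, edgeR adjusted p = 0.174). ETFDH, which passes electrons from fatty acid oxidation to ubiquinone, had 74.6, 73.1 and 82.0 CPM in the CON libraries and 18.3, 53.2 and 29.2 CPM after LPS, with a log2 fold change of -1.19 (SE 0.39, edgeR adjusted p = 0.268). Its partner ETFA had a log2 fold change of -0.69 (edgeR adjusted p = 0.441). The LPS libraries were all above the CON libraries for DHODH and all below them for ETFDH and ETFA. Groups apart made up 42.9% of the 7 tested genes of this list, against 16.3% of all tested genes. CYCS, cytochrome c itself, had the highest log2 fold change of this list and is named here after its values were seen. It had 42.7, 11.6 and 25.6 CPM in the CON libraries and 87.7, 34.4 and 361 CPM after LPS. LPS replicate 2 lay inside the CON range, and the log2 fold change was 2.59 (SE 0.82, edgeR adjusted p = 0.263). None of the 7 tested genes of this list of carriers and inhibitors was called. Of the 9 tested genes of ubiquinone synthesis, 4 had a positive and 5 a negative log2 fold change, with a median of -0.02, and 0 were called.

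The tricarboxylic acid cycle and pyruvate dehydrogenase feed NADH and succinate into the chain. Of their 19 tested genes, 7 had a positive and 12 a negative log2 fold change, with a median of -0.06 and 0 called. OGDH, the E1 subunit of the 2-oxoglutarate dehydrogenase complex, had 205, 309 and 341 CPM in the CON libraries and 683, 493 and 614 CPM after LPS, with a log2 fold change of 1.07 (SE 0.33, edgeR adjusted p = 0.247). PDHB, of the pyruvate dehydrogenase complex, had 52.4, 49.7 and 46.7 CPM in the CON libraries and 21.2, 33.2 and 25.7 CPM after LPS, with a log2 fold change of -0.89 (SE 0.30, edgeR adjusted p = 0.268). SUCLA2, which makes succinate in the step before complex II, had a log2 fold change of 0.70 (edgeR adjusted p = 0.467). The groups did not overlap for these 3 genes, 15.8% of the 19, near the 16.3% of all tested genes.

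Among regulators of mitochondrial biogenesis, 13 of 16 tested genes had a positive log2 fold change, with a median of 0.31 and 0 called. TFB1M (0.18) and POLG (0.26), which act on mitochondrial ribosomal RNA and DNA, had all LPS libraries above all CON libraries. In either direction, the groups were apart for 12.5% of the 16 regulators, against 16.3% of all tested genes. Of 60 tested genes of the mitochondrial ribosome, which translates the mitochondrial subunits, 50 had a positive and 10 a negative log2 fold change, with a median of 0.30 against 0.01 over all tested genes. For 8 of them (13.3%) all LPS libraries lay above all CON libraries, against 6.52% of all tested genes, for 0 all lay below, against 9.8%, and 0 were called. MRPL20 had 61.5, 61.2 and 76.7 CPM in the CON libraries and 182, 95.4 and 153 CPM after LPS, with a log2 fold change of 1.11 (SE 0.34, edgeR adjusted p = 0.242). MRPS34 and MRPS26 followed with 0.78 each (edgeR adjusted p = 0.368 and 0.421).

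Of 15 tested genes of mitochondrial stress and dynamics, 6 had a positive and 9 a negative log2 fold change, with a median of -0.20 and 0 called. SOD2, the superoxide dismutase of the matrix, which removes superoxide released by the chain, had 54.2, 82.8 and 94.5 CPM in the CON libraries and 959, 343 and 2143 CPM after LPS. All LPS libraries were above all CON libraries, but they differed among themselves by a factor of 6.25. SOD2 had a log2 fold change of 3.90 (SE 0.64, edgeR adjusted p = 0.0715). PINK1, a kinase that marks damaged mitochondria, and PDK1, a kinase that inhibits pyruvate dehydrogenase, had log2 fold changes of -0.92 (edgeR adjusted p = 0.263) and -0.84 (edgeR adjusted p = 0.392), with all LPS libraries below all CON libraries.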

How the data were processed

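For the liver input libraries, the authors deposited unnormalized whole-number counts of reads in 1 table of 31908 Ensembl pig genes with coordinates and exon length. Submitters' processing notes name cutadapt 1.9.3, HISAT2, galGal6 and hg38 without a role. Not given in the sources used here are the pig genome build, the counting program and its strand and multiple-mapping settings. The library kit is directional per the labels. The coordinates are those of the table. Columns were matched to libraries by group and replicate number. The labels list CON replicates 1 and 2 as 2 sample entries each, with 1 column each, and do not say how these entries differ. Nothing in the labels says that libraries came from separate piglets, so p-values measure the spread between libraries. The m6A-IP libraries were not analysed here.

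Symbols came from a table pairing 15029 identifiers. The fit used edgeR 4.0.16 under R 4.3.3 (filterByExpr with a minimum count of 10, TMM, glmQLFit with robust settings, glmQLFTest) over all 12774 tested genes, with Benjamini-Hochberg adjustment. A gene was called at an adjusted p below 0.05 and a fold above 1.5. The standard error was taken as the absolute log2 fold change over the root of the F statistic, and the 95% interval uses the t distribution. The method was tested on simulated data. Library totals were 4348478 to 19967417 counts.

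Alternatives were RLE factors, library totals, no filter, limma-voom (limma 3.58.1), DESeq2 1.42.0, at least 10 counts in every library, edgeR's likelihood ratio test, the replicate number as a block and each library left out. Named members were the 3 most abundant per length in each complex, up to 3 per complex and direction with groups apart, the isoform pairs and all members under the filter. SDHC, COX7C, NDUFA5, NDUFA8, NDUFAB1, NDUFB2, NDUFB5, NDUFB6, COX5A, ATP5F1A, ATP5F1C, ATP5PB and the rest of complex III were named beyond that rule. From each other list up to 3 genes with groups apart were named, and some genes, such as ATP8 and CYCS, were named beyond that. The members, lists and rules were chosen with earlier results of these data known, and the lists were written from general knowledge. DESeq2 adjusted p given as NA stayed NA.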

Additional observations from a re-analysis of the deposited data

How the results depend on the processing

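The count of called members was 0 in every alternative run. The count of members at an unadjusted p below 0.05, 0 in the reported fit, was 1 with RLE factors (UQCRQ), library totals (NDUFC2), no filter on low counts (UQCRQ), at least 10 counts in every library (NDUFC2) and DESeq2 (UQCRQ), and 0 to 4 when 1 library was left out. Library totals moved the median log2 fold change of the members from 0.11 to -0.018, of complex I to -0.0106, of complex II to -0.54 and of complex V from 0.02 to -0.15. When 1 library was left out, these medians ran from -0.0037 to 0.19 for the members, from 0.024 to 0.34 for complex III, from -0.0065 to 0.31 for complex IV and from -0.12 to 0.13 for complex V. With the replicate block, 1 member (UQCRQ) was below an unadjusted p of 0.05 and 0 were called, the member median was 0.08, and 42 genes were called higher and 9 lower over all genes, against 7 and 0 without it. The correlations of deviations for replicate numbers 1, 2 and 3 were -0.24, 0.22 and 0.03, so the numbers were not taken to pair the libraries. Over all genes, the calls were 416 with DESeq2, 885 without a filter and 982 without LPS replicate 2.

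The sign turned in at least 1 alternative for 22 of the 59 members, all with a log2 fold change of 0.41 or less in size. Among members whose fold change is given, COX7C was 0.008 with limma-voom and 0.0757 with the replicate block, and SDHD was -0.018 with library totals. When 1 library was left out, the log2 fold change ran from -0.48 to 0.70 for COX7C, from -0.26 to 0.45 for SDHD, from -0.0116 to 0.69 for CYC1, from -0.53 to 0.20 for NDUFA5 and from -0.13 to 0.36 for NDUFB10. The cause of these turns was not tested. The signs of SDHA, SDHB, NDUFC2, NDUFS1, NDUFS3, UQCRFS1 and UQCRQ held in every alternative run. Apart from UQCRQ, these were the tested members whose groups did not overlap. Leaving out 1 library could therefore hardly turn their signs, and nothing is concluded from the signs that held.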
